A study of Oryza sativa and Oryza rufipogon with 8 samples.

Results

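The genes described here are the 2 ferric reductase genes *FRO1* (OS04G0578600) and *FRO2* (OS04G0444800) and the 5 H+-ATPase genes *OSA1* (OS03G0689300), *OSA2* (OS07G0191200), *OSA3* (OS12G0638700), *OSA7* (OS04G0656100) and *OSA8* (OS03G0100800), 7 of the 35679 genes listed for *O. sativa*. They were taken by identifier as parts of the reduction strategy of Fe uptake (Strategy I) other than its transporters, and each is listed. Their levels were measured by RNAseq in roots of *O. sativa* cultivar Nipponbare at the three-leaf stage, after 5 days without added Fe (−Fe) or with 100 µM Fe-EDTA (control condition, CC). There were 2 −Fe and 2 CC libraries, each made from the RNA of 3 biological replicates pooled before sequencing, so that n = 2 for every mean and SD below. The *O. rufipogon* libraries of the same study were not used here, since the sources used here do not pair these 7 genes with identifiers of that species.

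Strategy I, used by plants outside the grasses, works in steps at the root surface: plasma membrane H+-ATPases pump protons out and dissolve ferric Fe, a ferric reductase turns it into ferrous Fe, and a transporter carries the ferrous ion into the cell. In Arabidopsis these steps are known for the pump AHA2, the reductase FRO2 and the transporter IRT1. Grasses instead secrete chelators of the mugineic acid family and take up the chelated Fe (Strategy II), and cultivated rice combines this with transporters for ferrous Fe. The comparison of −Fe with CC asks whether the reduction and acidification genes respond to Fe deficiency in rice roots.

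The deposited values are estimated counts and TPM (a level corrected for transcript length and library size) from Kallisto, which shares out reads that match several transcripts. The total of the estimated counts was between 22911261 and 25312301 per library. Counts were summed over the transcripts of a gene and tested over 25767 genes by edgeR (quasi-likelihood F test), with adjustment over all of them and an FDR of 0.05. By this test 942 genes (3.66%) were lower and 767 (2.98%) higher under −Fe, 6.63% in all. This balance rested on single libraries: 292 genes were lower and 461 higher without −Fe library 1, 642 and 440 without −Fe library 2, 358 and 411 without CC library 1, and 284 and 324 without CC library 2. Of the root markers checked, *Lsi1* (the silicon channel of root cells) had 517 and 605 TPM in the −Fe libraries, against 1806 and 1327 TPM in the CC libraries, and was lower under −Fe (log2 fold change −1.45, edgeR adjusted p = 0.00368). *RCc3* had 788 and 1024 TPM under −Fe, against 1490 and 1986 TPM under CC, and did not pass (log2 fold change −0.91, edgeR adjusted p = 0.0770). The summed level of 7 genes of photosynthesis in shoots (small subunit of Rubisco and light-harvesting proteins), none of which was at 0, was 536 and 214 TPM under −Fe and 401 and 617 TPM under CC, and 0 of the 7 passed the test. In bulk roots, as in all results below, fewer cells of one type and less RNA per cell cannot be told apart.

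Of the 7 genes, 1 passed the test. *OSA2* fell under −Fe to 59.2% of its CC level (95% interval 51.8% to 67.6%). None of the 6 genes with enough counts to be tested passed the test upward. All 10 genes of Fe acquisition set beside them did, with estimated folds between 3.15 and 16.8. The study had picked these 10 genes as regulated. *FRO1* had an estimated count of 0 in every library, and the remaining 5 genes did not pass the test in either direction. The 1 gene that passed downward among 6 tested genes stands beside 3.66% of all tested genes. The median log2 fold change was −0.17 over the 6 genes and −0.01 over all tested genes.

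Ferric reductases of the FRO family are membrane proteins that carry electrons from NADPH across a membrane to ferric Fe. Where in the cell the proteins of these rice genes act was not measured here. The names *FRO1* and *FRO2* are tied here to the identifiers given above, and other sources may number these genes the other way round, so that the identifier decides which gene is meant. *FRO1* (OS04G0578600, chromosome 4) was listed at an estimated count of 0 in both −Fe libraries and in both CC libraries. A count of 0 in a library allows up to 3 counts, or between 0.0598 and 0.0661 TPM for a transcript of 2383 nt, and covers counting error only. No fold change can be given.

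*FRO2* (OS04G0444800, chromosome 4) was detected at a low level. It had 95 and 64 counts in the −Fe libraries, against 111 and 115 in the CC libraries, which is 1.82 and 1.16 TPM under −Fe and 2.22 and 2.28 TPM under CC. Both −Fe libraries lay below both CC libraries, and they differed from each other more than the CC libraries did. The log2 fold change was −0.58 (95% interval −1.15 to −0.01), that is 66.9% of the CC level. It did not pass the test (edgeR unadjusted p = 0.0476, adjusted p = 0.240, and between 0.182 and 0.615 over the alternatives that were run). Its summed counts were whole numbers, and no division of reads with another gene showed in them. All its counts went to the transcript of 2627 nt, and the other transcript, of 2581 nt, was at 0. Without −Fe library 2 the log2 fold change was −0.31, and without −Fe library 1 it was −0.88, so that the size of the difference rests on which −Fe library is kept.

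For scale, the ferrous transporter *IRT1* had 249 and 267 TPM under −Fe, against 75.5 and 58.3 TPM under CC. In every library its level in TPM was above that of both reductase genes together.

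**Figure D1:**
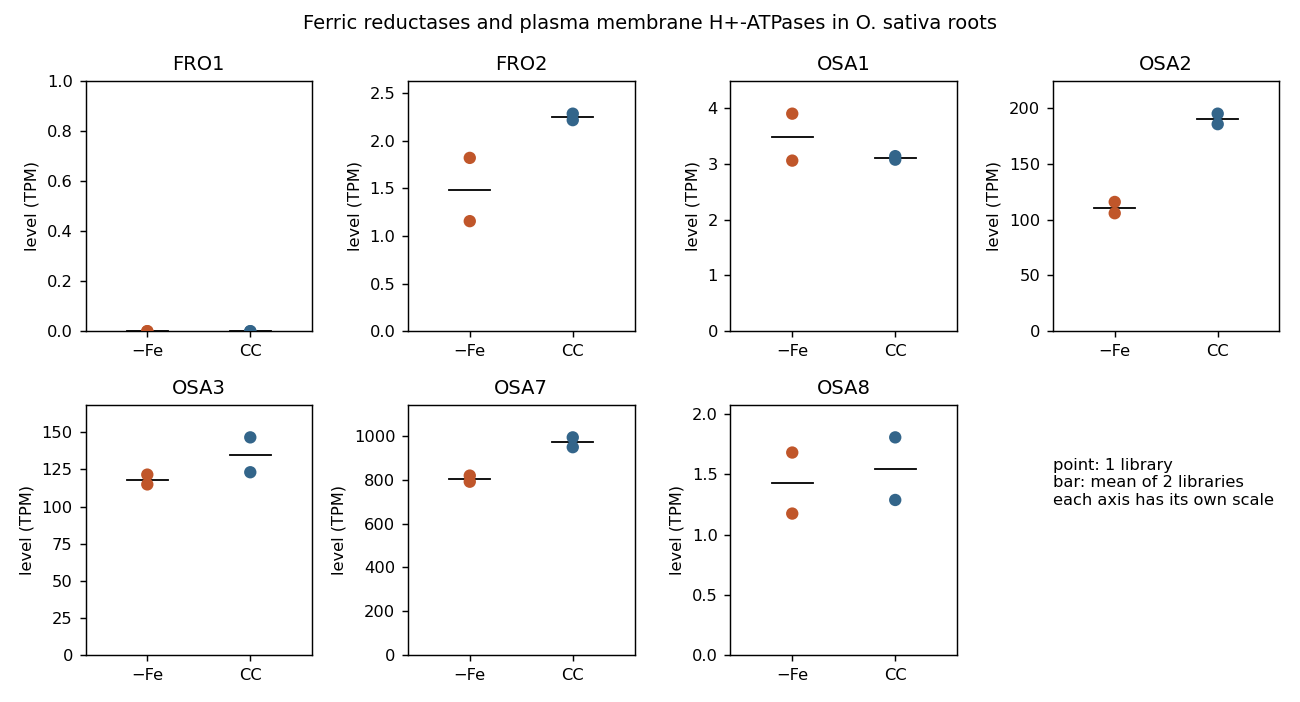
Level in TPM (vertical axis, own scale in each panel, starting at 0) of the 2 ferric reductase and 5 H+-ATPase genes in each *O. sativa* root library, with −Fe to the left of CC; points are libraries and bars are means of 2 libraries. *FRO1* is at 0 throughout, and *OSA2* is at 116 and 106 TPM under −Fe against 185 and 195 TPM under CC.

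The H+-ATPases of the plasma membrane are P-type pumps with a single catalytic chain, which build up the proton gradient that drives uptake of most nutrients. Their activity is also set by phosphorylation near the C-terminus and binding of 14-3-3 proteins, which RNA levels do not measure. Pump genes other than the 5 listed here were not examined. By level the 5 genes fell into an abundant set, *OSA7*, *OSA2* and *OSA3*, and a scarce set, *OSA1* and *OSA8*.

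*OSA7* (chromosome 4) was by far the most abundant of the 5 pump genes. It had 792 and 820 TPM in the −Fe libraries, against 995 and 950 TPM in the CC libraries. These levels placed it at ranks 117 and 111 under −Fe and 80 and 85 under CC among the 35679 listed genes. The libraries of the conditions did not overlap. The log2 fold change of its counts was −0.23 (95% interval −0.46 to 0.01, edgeR adjusted p = 0.259) and did not pass the test. Its summed counts were whole numbers, so that no division of reads with another gene showed in them.

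*OSA2* (chromosome 7) was the gene that passed the test, with a lower level under −Fe. It had 116 and 106 TPM in the −Fe libraries, against 185 and 195 TPM in the CC libraries, and the spread within each condition was small beside the gap between them. In CPM (counts scaled to the library size, with TMM normalization) it averaged 252 ± 7.89 under −Fe and 425 ± 19.5 under CC (SD, n = 2). The log2 fold change was −0.76 (SE 0.0849, 95% interval −0.95 to −0.56, edgeR adjusted p = 0.000879), that is between 51.8% and 67.6% of the CC level. The gene passed the test without any 1 of the 4 libraries and under the other alternatives that were run, with log2 fold changes between −0.80 and −0.71 and adjusted p of at most 0.0231. Its estimated counts were not whole in 3 of 4 libraries, so that part of its reads was divided with another gene. The root markers *Lsi1* and *RCc3* given above also had lower levels in both −Fe libraries than in both CC libraries. Of all tested genes, 51.6% had no overlap between the conditions in CPM, in either direction. The part of *Lsi1* and *RCc3* in the fall of *OSA2* was not tested.

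*OSA3* (chromosome 12) had a level near that of *OSA2* under −Fe. It had 122 and 115 TPM under −Fe, against 123 and 147 TPM under CC. In CPM the conditions overlapped. The log2 fold change was −0.11 (95% interval −0.33 to 0.11, or 79.3% to 108% of the CC level, edgeR adjusted p = 0.595). Its counts were divided with another gene in all 4 libraries.

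The order of the abundant pumps differed between the conditions. Under −Fe the levels of *OSA2* and *OSA3* overlapped, with a ratio of *OSA2* to *OSA3* of 0.953 and 0.920 in TPM. Under CC *OSA2* stood above *OSA3* in both libraries, with a ratio of 1.51 and 1.33. *OSA7* stood above both in every library.

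*OSA1* (chromosome 3), studied in rice for its part in stomatal opening and in ammonium uptake by roots, was expressed at a low level. It had 3.06 and 3.90 TPM under −Fe, against 3.08 and 3.14 TPM under CC, and the conditions overlapped. The log2 fold change was 0.20 (95% interval −0.20 to 0.60, edgeR adjusted p = 0.606). This upper bound, 151% of the CC level, was the highest of the 6 tested genes. The counts of *OSA1*, between 194 and 273 per library, were partly divided with another gene in all 4 libraries.

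*OSA8* (chromosome 3) had the lowest level of the 5 pump genes. It had 1.68 and 1.17 TPM under −Fe, against 1.29 and 1.81 TPM under CC, from 83 to 117 counts per library, which were partly divided with another gene in 2 of 4 libraries. The conditions overlapped, with a log2 fold change of −0.10 (95% interval −0.69 to 0.50, edgeR adjusted p = 0.892). The interval ran from 61.8% to 141.5% of the CC level, so that a rise or a fall within these limits is not excluded by these counts. Its level overlapped that of *FRO2* under −Fe and lay below it under CC, and *OSA1* stood above both in every library.

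Among the 6 tested genes, 3 (*FRO2*, *OSA2* and *OSA7*) had −Fe libraries that did not overlap with the CC libraries in CPM, all 3 with the −Fe libraries lower, beside 51.6% of all tested genes without overlap in either direction.

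Summed over the 5 pump genes, the level was 1034 and 1046 TPM under −Fe, against 1308 and 1297 TPM under CC. The sum under −Fe was 79.9% of that under CC, a difference of −262 TPM between the means, which was not tested. The summed counts of the 5 genes were not whole in both −Fe libraries and in CC library 2. Part of their reads was thus divided with genes outside the 5. By gene, the difference (−Fe minus CC) was −166.5 TPM for *OSA7*, which did not pass its test, −79.5 TPM for *OSA2* and −16.65 TPM for *OSA3*. *OSA1* and *OSA8* differed by 0.372 and −0.120 TPM. *OSA7* held 76.6% and 78.4% of the summed level under −Fe, against 76.1% and 73.3% under CC. The share of *OSA2* was 11.2% and 10.1% under −Fe and 14.2% and 15.0% under CC. *OSA3* held 11.7% and 11% under −Fe and 9.41% and 11.3% under CC, and the scarce genes never held more than 0.373% each. Most of the summed level thus came from *OSA7* in every library. The interval of the log2 fold change of *OSA2* did not overlap those of *OSA3* and *OSA7*, but the difference in response between the pump genes was not tested.

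**Figure D2:**
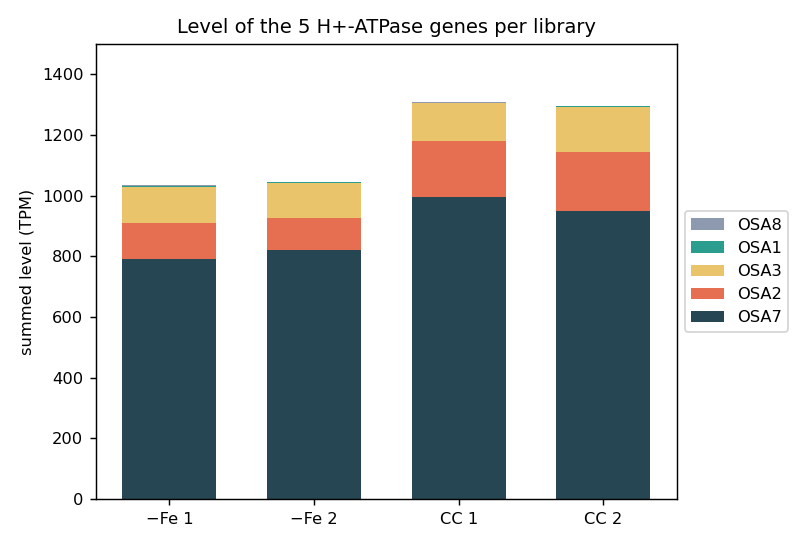
Summed level in TPM (vertical axis) of *OSA7*, *OSA2*, *OSA3*, *OSA1* and *OSA8* in each *O. sativa* root library (horizontal axis, −Fe libraries left of CC libraries), with 1 bar per library and 1 colour per gene. The bars reach 1034 and 1046 TPM under −Fe and 1308 and 1297 TPM under CC, and *OSA7* is the largest piece of each.

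Of the 14 transcripts listed for the 7 genes, those with enough counts were also tested one by one, among 30675 transcripts of which 3.39% passed. Only the transcript of *OSA2* of 2681 nt passed among them. It held 94.2% of the counts of the gene in both −Fe libraries and 94.8% and 95% in the CC libraries, and its log2 fold change was −0.77 ± 0.0842 (SE, edgeR adjusted p = 0.00909). The *OSA2* transcript of 3386 nt had 366 and 353 counts under −Fe, against 502 and 507 under CC, with a log2 fold change of −0.57 that came just short of the threshold (edgeR adjusted p = 0.0521). Both transcripts were thus lower in both −Fe libraries.

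Most *OSA7* counts, 77.0% and 75.6% under −Fe and 80.2% and 80.1% under CC, went to the transcript of 2062 nt, with 647 and 659 TPM under −Fe, against 839 and 795 TPM under CC. Its log2 fold change of −0.30 did not pass (edgeR adjusted p = 0.177). The *OSA7* transcripts of 2443 nt and 3558 nt had overlapping levels, and did not pass either (log2 fold change −0.05 with adjusted p = 0.857, and 0.20 with adjusted p = 0.658, by edgeR). The short transcript of 410 nt had at most 8.31 counts in a library.

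The transcripts of *OSA3* had fold changes of opposite sign. The one of 3288 nt had 23.4 and 20.9 TPM under −Fe, against 17.8 and 19.9 TPM under CC, and the one of 1702 nt had 98.1 and 94.0 TPM under −Fe, against 105 and 127 TPM under CC. Neither passed (log2 fold change 0.25 with adjusted p = 0.239 for the longer, and −0.25 with adjusted p = 0.304 for the shorter, by edgeR). The longer transcript took 31.8% and 30.3% of the counts of the gene under −Fe and 24.8% and 23.5% under CC. A test of each transcript against the others of its gene, added after seeing the data, did not pass for the longer *OSA3* transcript (log2 difference 0.37, edgeR adjusted p = 0.584), beside 0.652% of 9046 transcripts that passed. Kallisto divides reads between such transcripts, so that these shares are estimates.

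**Figure D3:**
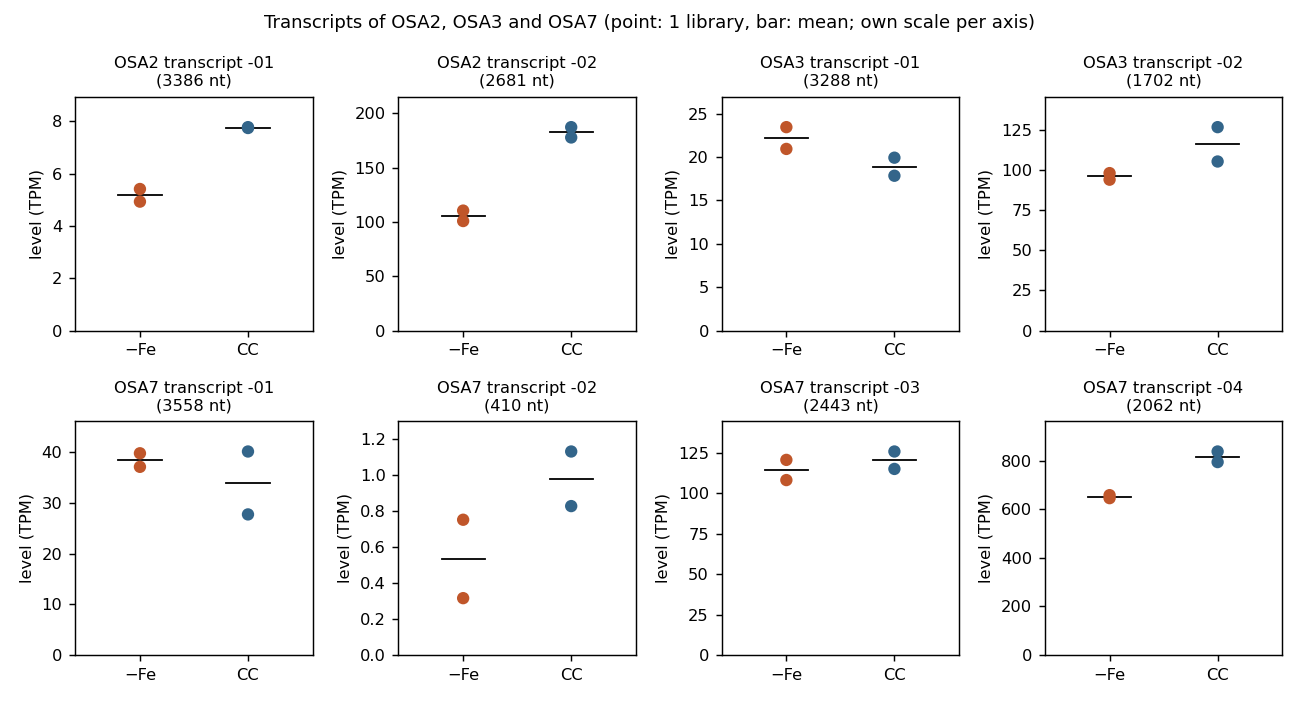
Level in TPM (vertical axis, own scale in each panel, starting at 0) of each transcript of *OSA2*, *OSA3* and *OSA7* in the *O. sativa* root libraries, −Fe to the left of CC; points are libraries and bars are means of 2 libraries. Both *OSA2* transcripts are lower in both −Fe libraries, and the *OSA3* transcripts of 3288 nt and 1702 nt lie on opposite sides of their CC means.

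The response of the reductase and pump genes was set beside that of 10 genes of Fe acquisition: the ferrous transporters *IRT1* and *IRT2*, the metal transporter *NRAMP1*, the Fe-chelate transporter *YSL15*, the chelator synthesis genes *NAS1*, *NAAT1* and *DMAS*, the nicotianamine exporter *ENA1*, and the transcription factors *IRO2* and *IRO3*. The study picked them as regulated in these libraries, so neither their direction nor the size of their rises is independent evidence. Both serve as a scale only. All 10 passed the test upward, beside 2.98% of all genes, 7 of them with reads shared with other genes, with a median log2 fold change of 3.28 and adjusted p of at most 0.00494 in edgeR. With the replicate number as a block, *DMAS* no longer passed (edgeR adjusted p = 0.147) at a log2 fold change of 3.24, against 3.23 without the block. The smallest rise was that of *ENA1*, which had 188 and 187 TPM under −Fe, against 60.6 and 60.2 TPM under CC, a 3.15-fold rise. The largest was that of *IRT2*, 16.8-fold, with 9.94 and 13.1 TPM under −Fe, against 0.633 and 0.766 TPM under CC. Of the 6 tested reductase and pump genes, 0 had an upper bound that reached the lowest lower bound of these 10 genes. Since the 10 genes were picked as regulated, this gap is not a test. The highest upper bound was 151% of CC for *OSA1*, and the lowest lower bound was 279% of CC for *ENA1*. For *FRO1*, with no estimated counts, there is no such bound. Reductase and proton pump activities were not measured in these data.

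**Figure D4:**
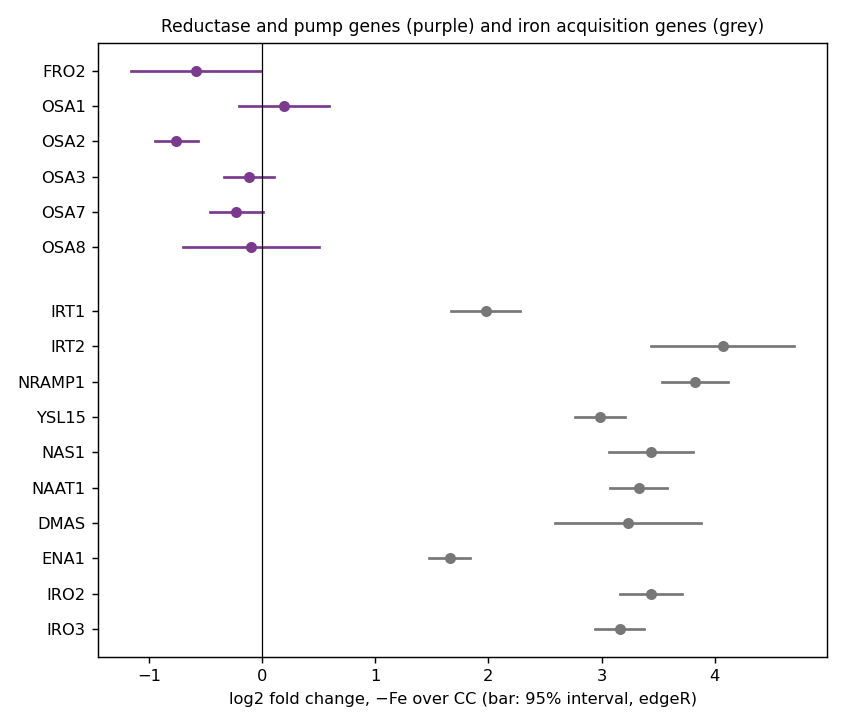
Log2 fold change of summed counts, −Fe over CC (horizontal axis), with its 95% interval from edgeR, for the tested reductase and pump genes (purple) and for the genes of Fe acquisition (grey), from 2 −Fe and 2 CC libraries of *O. sativa* roots. The purple intervals end at or below 0.60, and the grey ones begin at or above 1.48.

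The genes whose pattern over the 4 libraries was closest to that of *OSA2* were OS07G0609550 and OS01G0893400. Their root mean square differences of centred log2 CPM were 0.0220 and 0.0351. Both genes were taken from 11522 genes with a mean count of at least 50 and whole summed counts. OS07G0609550 had 3.17 and 3.05 CPM under −Fe, against 5.27 and 5.54 CPM under CC, and did not pass (edgeR adjusted p = 0.0596). OS01G0893400 had 9.79 and 9.47 CPM under −Fe, against 16.5 CPM in both CC libraries, and passed (edgeR adjusted p = 0.00648). The sources used here give these identifiers no name, and nothing about shared function follows from the likeness.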

How the data were processed

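RNA of *O. sativa* roots (2 −Fe and 2 CC libraries) was sequenced on an Illumina instrument as cDNA. The authors removed low-quality reads, trimmed adapters and the start of each read, and ran Kallisto on a set of transcripts. Its version is not given in the sources used here, and the submitters' processing notes name the build IRGSP-1.0. The authors deposited estimated counts, not normalized, and TPM per transcript. The 4 libraries were taken from their labels, and those of *O. rufipogon* were not used here.

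Estimated counts were summed per gene (T replaced by G in the transcript identifier, suffix dropped) and rounded. Genes with at least 5 counts in at least 2 libraries were tested with edgeR 4.0.16 (robust quasi-likelihood, TMM) in R 4.3.3, with Benjamini-Hochberg adjustment. Intervals are 95% intervals from the same fit. Transcripts were tested in the same way, and transcripts against the others of their gene with diffSpliceDGE. A gene shared reads when its summed estimate was more than 0.1 from a whole number in a library, as for 34.1% of genes. The procedure was tested on simulated data.

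The alternatives were DESeq2 1.42.0, median-ratio size factors, no filter, at least 10 counts in each library, limma 3.58.1 on log2(TPM + 1) and on log2(TPM + 0.1), the replicate number as a block, the most abundant transcript, and leaving out each library. A crossed replicate block, added after seeing the data, was counted with these to give 13 alternatives. The genes and lists were chosen with earlier results of these data known. By the rule for named genes, all 7 genes are given, with the 10 genes of Fe acquisition and, for genes past the FDR, the 2 genes of most similar pattern. The lists of other pumps, 14-3-3 proteins, respiratory burst oxidases and further reductases were dropped, since the reference table used here carries no descriptions. The names *FRO1* and *FRO2* follow the identifiers given with them, and a synonym of *FRO1* in the RefSeq table could not be matched to either identifier. Chromosomes are those in the identifiers.

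Within a condition the 2 libraries differed beyond sampling noise (chi-square over degrees of freedom 9.94 under −Fe and 7.56 under CC), and every library was kept as a replicate. The labels do not say whether the plants of a library were grown apart from those of the other, so p-values measure the spread between these libraries. An exact two-sided permutation test of 2 against 2 libraries has 0.333 as its smallest p, so none was used.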

Additional observations from a re-analysis of the deposited data

How the results depend on the processing

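The fall of *OSA2* passed the FDR under each of the 13 alternatives, and 1 of the 7 genes was called in each. For the other 5 tested genes no alternative gave a call. The sign of the log2 fold change turned in 1 of 13 alternatives for *OSA1* (between −0.02 and 0.42), in 1 for *OSA3* (between −0.25 and 0.03) and in 2 for *OSA8* (between −0.33 and 0.18), and it was negative in 13 of 13 for *FRO2* (between −0.88 and −0.31) and *OSA7* (between −0.30 and −0.14). Over all genes 1709 passed, and between 608 and 1082 when 1 library was left out (753 without −Fe 1, 1082 without −Fe 2, 769 without CC 1 and 608 without CC 2), where the lone library of a condition is assumed to vary like the others. With the replicate block 1717 genes passed, 1 of the 7 genes among them, and 9 of the 10 genes of Fe acquisition, *DMAS* being lost (log2 fold change 3.24, edgeR adjusted p = 0.147). Deviations of same-numbered libraries had a correlation of −0.125 over 25767 genes, so the numbers were not taken to pair the libraries. The crossed pairing, added after seeing the data, gave 2036 genes and the same count of 1 among the 7. The depth limits *FRO1*, *FRO2*, *OSA1* and *OSA8* most.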
